A study of Drosophila melanogaster with 3 samples.

Results

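The regions described here are the distal intergenic peaks of the transcription factor subunit Nf-YB in the fly embryo, meaning peaks that lie outside genes and far from any gene start. They were taken from the authors' optimal list, a list of reproducible peaks derived from all replicates, which holds 6221 peaks. A peak was kept when its summit lay outside every annotated gene and over 2000 bp from the transcription start site (TSS) of any gene. This left 763 peaks, or 12.3% of the list (95% exact Clopper-Pearson interval 11.5 to 13.1%) and 29.3% of the 2604 summits outside genes. Signal played no part in the choice.

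The data come from chromatin immunoprecipitation with sequencing (ChIP-seq) on whole Drosophila melanogaster embryos of mixed sex, collected over 0 to 24 h of development. The transgenic line Nf-YB-GFP carries Nf-YB fused at its C-terminus to green fluorescent protein, and the tag was the target of the antibody. There were 3 biological replicates of this 1 group, with no other genotype, treatment or stage. Whole embryos mix all cell types and a day of development, so a weak peak in many cells and a strong peak in few cannot be told apart, and the files hold no read counts, so depth is unknown.

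NF-Y is a complex of the subunits NF-YA, NF-YB and NF-YC. NF-YB and NF-YC pair through histone-like folds, and NF-YA reads the sequence CCAAT, long known from promoters. In flies, sequence far from genes is known to hold enhancers, insulators and Polycomb response elements, the sites at which Polycomb group proteins keep developmental genes silent.

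The sequences below show what lies under the highest of these peaks. They are the 101 bases centred on a summit, from the RefSeq copy of dm6, plus strand, with CCAAT or its reverse complement ATTGG in capitals. Each peak is named by the nearest protein-coding genes to its left and right. The first 8 rank 4, 19, 27, 30, 61, 74, 80 and 85 in the optimal list, where rank 1 is the highest signal. They are the 8 highest members apart from those on an arm whose sequence is not printed here, and each was found in all replicates. All 8 hold CCAAT, but a higher-ranked member on the arm left out, between Eglp2 and retn at rank 38, does not. The last is given for contrast, as the highest peak in the second-longest gene-free gap with a member, and it holds no CCAAT.
E5 / ems (chr3R:13877253-13877353): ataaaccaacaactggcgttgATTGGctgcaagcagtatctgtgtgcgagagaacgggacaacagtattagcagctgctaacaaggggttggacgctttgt
tey / CG8765 (chr3L:19683077-19683177): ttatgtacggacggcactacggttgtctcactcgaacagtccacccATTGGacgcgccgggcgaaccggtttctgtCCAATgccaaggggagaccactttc
CG11920 / fd96Ca (chr3R:25080557-25080657): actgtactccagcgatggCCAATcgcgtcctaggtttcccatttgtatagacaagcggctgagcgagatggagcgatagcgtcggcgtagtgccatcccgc
hth / CG6465 (chr3R:10665163-10665263): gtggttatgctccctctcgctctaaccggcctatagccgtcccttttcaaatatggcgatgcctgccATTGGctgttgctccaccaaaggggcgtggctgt
ph-d / ph-p (chrX:2125633-2125733): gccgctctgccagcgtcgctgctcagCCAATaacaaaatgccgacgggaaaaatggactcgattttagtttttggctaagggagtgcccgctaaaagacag
CG14659 / opa (chr3R:4835413-4835513): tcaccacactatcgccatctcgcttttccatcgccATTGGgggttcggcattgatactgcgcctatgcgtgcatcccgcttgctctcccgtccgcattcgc
CG17375 / sens-2 (chr2L:6817560-6817660): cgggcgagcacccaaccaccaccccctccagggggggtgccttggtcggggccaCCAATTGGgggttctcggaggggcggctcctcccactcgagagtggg
grn / CheA84a (chr3R:8190976-8191076): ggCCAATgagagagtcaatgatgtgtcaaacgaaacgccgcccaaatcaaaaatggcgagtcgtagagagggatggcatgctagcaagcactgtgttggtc
NijA / CG43245 (chr3L:10752709-10752809): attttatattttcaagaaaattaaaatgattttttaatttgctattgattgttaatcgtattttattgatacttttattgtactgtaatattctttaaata

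The next lines give the CCAAT site nearest the summit for the 16 highest members with such a site within 50 bp, leaving out the same arm, as 25 bases read in the CCAAT direction with the core in capitals. They show how far the letters beside the core vary from site to site.
E5 / ems: ctgcttgcagCCAATcaacgccagt
tey / CG8765: cccggcgcgtCCAATgggtggactg
CG11920 / fd96Ca: ccagcgatggCCAATcgcgtcctag
hth / CG6465: ggagcaacagCCAATggcaggcatc
ph-d / ph-p: cgctgctcagCCAATaacaaaatgc
CG14659 / opa: tgccgaacccCCAATggcgatggaa
CG17375 / sens-2: gtcggggccaCCAATtgggggttct
grn / CheA84a: ctgcgcatggCCAATgagagagtca
cad / Pomp: ttctctttacCCAATcgttcgcctc
slou / CG15498: caacatgcagCCAATgagtgaaatc
sens / CG10222: gttctgctggCCAATcagcgagcgg
croc / Neu2: tttctctctgCCAATatgagacagg
inc / Mur2B: cgtctatccaCCAATaggaaactag
lbe / Fancm: aggcacacagCCAATcagagccggc
CG33483 / Ptx1: aagaaataaaCCAATcgaaagggag
msopa / olf413: agtgagcgcgCCAATcggaaggttt

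Over all 255 members with CCAAT within 50 bp of the summit, the letters beside the core were uneven. The base just before the core was a purine at 67.1% of sites, against 44.2% for the 330 CCAAT sites found 500 bp to the sides of members. The base just after it was C or G at 67.1% of sites, against 38.8% to the sides, and the next base was a purine at 72.5%, against 46.4%. C stood at the third base before the core in 42.7% of sites, against 20.0% to the sides. In the 58 sites of the 100 highest members these shares were 72.4%, 75.9%, 84.5% and 56.9%. Within 50 bp of the summit the mean GC content of members was 43.5% ± 1.84 (SD, n = 3 replicates), against 39.8% ± 0.22 in the side windows, and the part of base composition in these letters was not tested.

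The highest members were among the highest peaks of the whole list. Those named here were chosen as found in all replicates, so their presence in each is no finding, and their ranks are given as a description. The peak between E5 and ems, a pair of homeobox genes of which ems (empty spiracles) patterns the head and the tracheal openings, had list rank 4. It ranked 3, 5 and 4 in replicates 1, 2 and 3 and had 116 times the median signal of the list. Its interval is chr3R:13876905-13877785, and its summit lay 2387 bp upstream of the start of E5.

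The peak between CG13321 and Psc (Posterior sex combs, a Polycomb group protein) had list rank 5 and ranked 8, 6 and 5 in the replicates. The peak between Su(z)2, a Polycomb group gene related to Psc, and CG13323 had list rank 15 and ranked 24, 26 and 13. Both were within the highest 30 peaks of each replicate.

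The peak between tey, which encodes a zinc finger protein known from muscle development, and CG8765 had list rank 19 and ranked 9, 20 and 30. The peak beside the forkhead gene fd96Ca had list rank 27 and ranked 28, 29 and 25, with its summit 2077 bp from the start of that gene. The peak between hth (homothorax, a partner of Hox proteins) and CG6465 had list rank 30 and ranked 30, 35 and 20. It is the most distant of the 12 highest members, 12038 bp from the nearest start.

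The peak between Eglp2 and retn (retained, an ARID-domain factor) had list rank 38 and ranked 53, 58 and 28. It is the only one of the 12 without CCAAT within 50 bp of its summit. The peak between Optix, a homeobox gene of eye development, and CG12769 had list rank 55 and ranked 59, 53 and 58. Its nearest start was that of CG12769, 7103 bp away.

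The peak between ph-d and ph-p had list rank 61 and ranked 47, 54 and 73. These neighbours are the polyhomeotic genes, Polycomb group members that arose by tandem duplication, and the labels and headers do not say how reads were shared between similar copies. The peak between CG14659 and opa (odd paired, a zinc finger factor of segmentation) had list rank 74 and ranked 76, 78 and 62. Its nearest start was that of CG14659, 4166 bp away. That beside sens-2, a zinc finger gene, had list rank 80 and ranked 109, 115 and 43, the widest spread of the 12 in number of places. That between grn (grain, a GATA factor) and CheA84a had list rank 85 and ranked 89, 84 and 74.

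**Figure D1:**
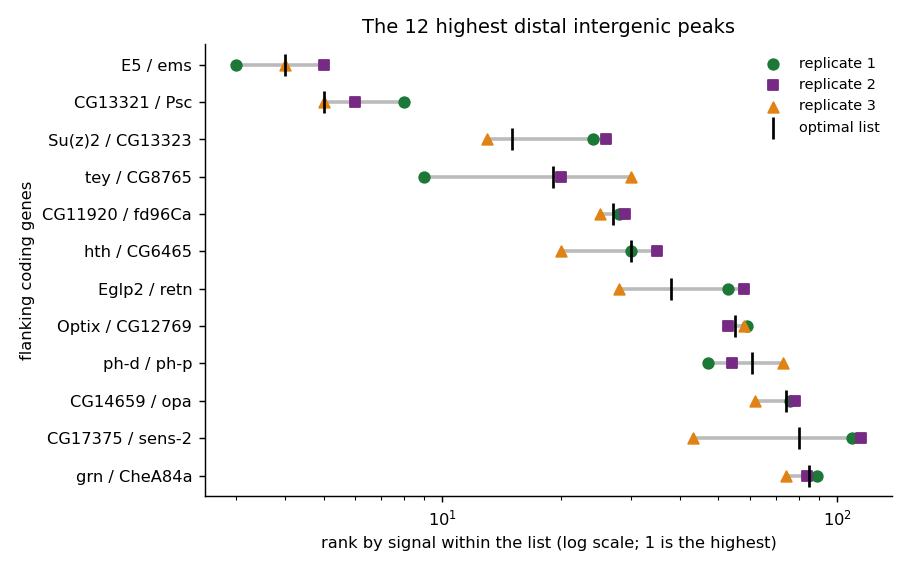
Rank by signal, on a log axis where 1 is the highest, of the 12 highest distal intergenic peaks found in all replicates. Each row is 1 peak named by its flanking coding genes, symbols are the 3 replicates, the black bar is the optimal list and the grey line joins the lowest and highest rank. E5 / ems stays between 3 and 5, while CG17375 / sens-2 runs from 43 to 115.

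Over all 763, the members spanned the whole range of signal. Their list ranks ran from 4 to 6213 with a median of 3028, close to the middle of the list, and 89 of them were among its 622 highest peaks. The median rank was 2633 for the 425 intergenic peaks with a start 500 to 2000 bp away, 3479 for the 1254 intronic peaks over 2000 bp from a start, and 3014.5 for the 2802 peaks within 500 bp of a start.

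The rule was also applied to each replicate's own 6221 highest peaks, which gave 803, 824 and 686 distal intergenic peaks in replicates 1, 2 and 3. Their median signal percentile was 55.7, 53.4 and 47.9, a mean of 52.3 ± 4.02 (SD, n = 3). Intergenic peaks 500 to 2000 bp from a start were higher, at 62.3, 61.0 and 55.3, in 3 of 3 replicates. Intronic peaks were lower, at 48.1, 46.6 and 43.9, in 3 of 3 replicates. The differences of -7.22 ± 0.55 and 6.11 ± 1.93 percentile points exceeded their spread between replicates. With 3 replicates an exact two-sided sign-flip permutation test cannot give a p below 0.25, and both comparisons reached 0.25. Over the 49 comparisons of this kind made here the lowest Benjamini-Hochberg adjusted exact p is 0.383, so none passes 0.05, and replicate counts are given in place of p-values below.

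The strongest members had wide intervals. The most frequent width, 444 bp, was given for 339 members (44.4%), and widths ran from 111 to 2444 bp. The 100 highest members had a median width of 643.5 bp. Of all members, 54 (7.08%) were at least 700 bp wide, against 16.7% of intergenic peaks nearer a start, 3.51% of intronic peaks and 6.75% of promoter peaks. Some wide intervals hold more than 1 summit, and 52 members share their interval with another member.

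In all 3 replicates, 426 members (55.8%) had a summit within 100 bp in the 6221 highest peaks, against 54.6% of the whole list. Of the other members, 227 were found in 2 replicates, 103 in 1 and 7 in none. The share is close to that of the list, and it rose with signal, from 0 of the 100 lowest members to 100 of the 100 highest. Since the optimal list was made from these replicates, this measures where a peak falls in each of them and is not independent evidence of the peak. With the whole replicate lists, of 30000 peaks each, 702 members (92.0%) had a summit within 100 bp in all 3.

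Replicates 1, 2 and 3 held 83.9%, 82.2% and 74.4% of the members, so replicate 3 was lowest. For all other peaks the shares were 80.4%, 75.0% and 79.9%, so there replicate 2 was lowest. The mean for members, 80.2% ± 5.03 (SD, n = 3), differed by less than its spread from 80.9% ± 1.53 for nearer intergenic peaks and 77.2% ± 2.46 for intronic peaks. Of the 227 members found in 2 replicates, 132 were missing in replicate 3, 47 in replicate 1 and 48 in replicate 2. The GC content within 50 bp of the summit differed between these sets, with a mean of 45.4% ± 9.51 (SD) for members missing in replicate 3, 37.0% ± 12.2 for those missing in replicate 1 and 35.7% ± 12.1 for those missing in replicate 2. The part of base composition in the recovery was not tested.

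Members split by GC showed the same pattern. Of the 378 members with at least 45% GC at the summit, 91.3%, 91.5% and 74.1% were found in replicates 1, 2 and 3. Of the 148 members under 30% GC, 71.6%, 68.2% and 84.5% were found. Replicate 3 was thus the lowest of the 3 for GC-rich members and the highest for AT-rich ones. All other peaks ran the same way, with 88.6%, 84.0% and 73.1% at 45% GC or more and 74.6%, 70.0% and 91.5% under 30%.

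The 7 members found in no replicate had a median list rank of 6120, and none had CCAAT within 50 bp of its summit. The 5 with the highest signal among them have list ranks 4418, 5865, 6058, 6120 and 6124. They lie between unpg and Gnptab, CG6168 and CG6163, CG7320 and CheA75a, CG17570 and CG12617, and Cyp12e1 and hth. The first had a summit at rank 10257, 6504 and 9885 of the replicates, just past or well past the 6221 peaks compared.

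Of all members, 255 (33.4%) had CCAAT within 50 bp of the summit, against 27.0% of the whole optimal list. In the replicates' own lists the share was 32.9%, 31.1% and 31.6%, a mean of 31.9% ± 0.93 (SD, n = 3). Windows of the same size 500 bp to both sides of the same summits held it in 20.0%, 20.5% and 21.0%, so the summit share was higher by 11.3 percentage points ± 1.29 and higher in 3 of 3 replicates. The median distance from the summit to the nearest CCAAT in those 255 members was 20 bp, and 78 of them had it within 10 bp.

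Among classes of peaks, members exceeded intronic peaks by 4.48 ± 0.57 points and all other peaks by 5.87 ± 0.76 points, each in 3 of 3 replicates. Against intergenic peaks 500 to 2000 bp from a start they differed by 0.88 ± 1.68 points and were higher in 1 of 3, which is within the spread between replicates. The GC content at summits, which bears on how often a motif occurs, was 43.0% on average for members of the optimal list, 41.9% for the nearer intergenic peaks, 38.4% for intronic peaks and 38.6% for promoter peaks. Within GC classes, CCAAT was present in 43.7% of members and 35.7% of all other peaks at 45% GC or more, in 30.4% and 25.8% between 30 and 45%, and in 12.2% and 15.8% under 30%. The side windows of the members held it in 21.2%, 21.7% and 22.6% in the same order. The summit share was thus below the side windows for members under 30% GC. The 95% exact intervals of the members in these classes were 38.6 to 48.8%, 24.6 to 36.7% and 7.37 to 18.5%. They cover counting of peaks only and treat neighbouring peaks as independent. The GC classes were not compared within replicates, so these shares are a description.

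The difference from other peaks was widest among the highest peaks. Among the 622 highest peaks of the optimal list, 55 of 89 members (61.8%, 95% exact Clopper-Pearson interval 50.9 to 71.9%) had CCAAT, against 46.4% of nearer intergenic peaks, 48.1% of intronic peaks and 44.4% of promoter peaks. Among the 622 highest peaks of each replicate the members' share was 55.9%, 59.6% and 60.8%, above all 3 classes in 3 of 3 replicates. The mean excess was 14.7 ± 4.41 points over nearer intergenic peaks, 12.8 ± 2.45 over intronic peaks and 14.9 ± 4.30 over promoter peaks. This split by signal was added after the data were seen. Further down, 35.3% of members at ranks 1245 to 2488 had CCAAT, with 27.8% in their side windows and 28.9% of intronic peaks. At ranks 2489 to 3733 it was 25.7% of members, 19.4% of their side windows and 28.1% of intronic peaks. At ranks 3734 to 4977 the shares were 25.2%, 21.3% and 21.9%, and at ranks 4978 to 6221 they were 28.4%, 21.3% and 23.3%. Members were thus not above intronic peaks at each level of signal.

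**Figure D2:**
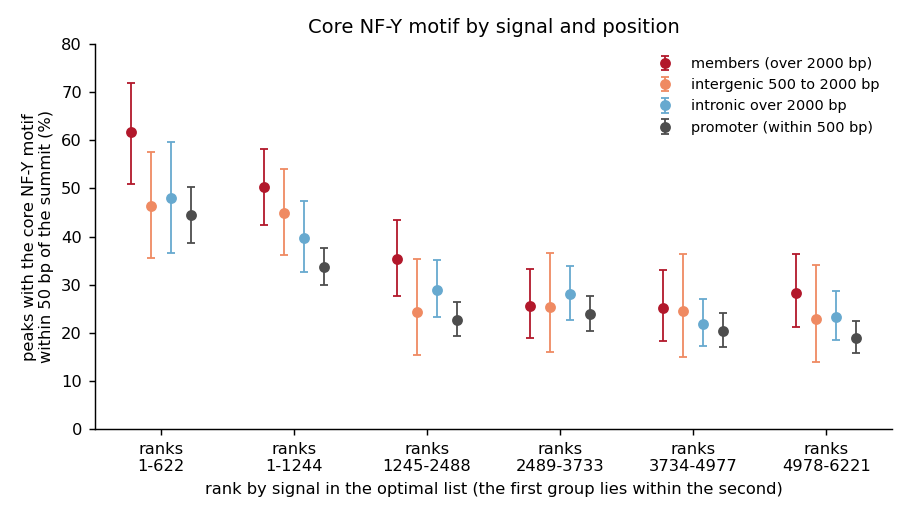
Percent of peaks of the optimal list with the core NF-Y motif within 50 bp of the summit, by signal, for members and 3 other classes of peaks. Points are shares and bars are 95% exact Clopper-Pearson intervals, which cover counting of peaks only. Members stand at 61.8% at ranks 1 to 622 and at 28.4% at ranks 4978 to 6221.

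**Figure D3:**
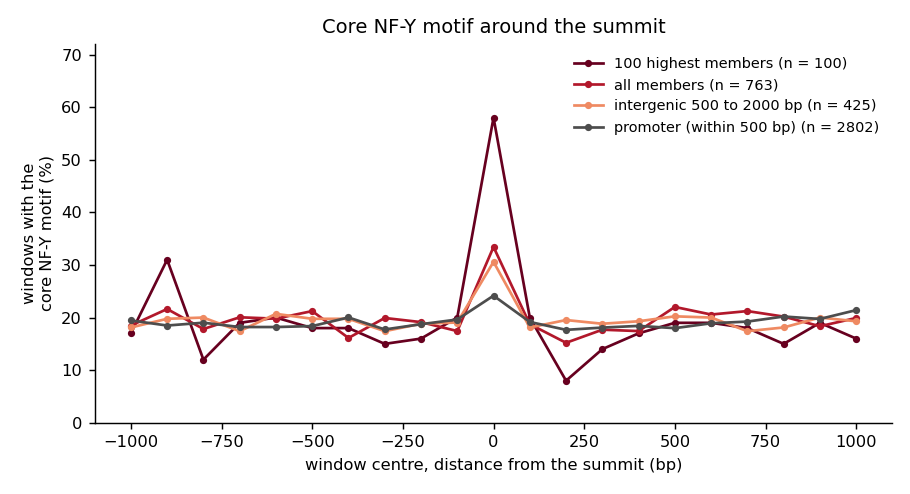
Percent of windows of 101 bp that hold the core NF-Y motif, by distance of the window centre from the summit, for all members, the 100 highest members and 2 other classes. Each point is 1 window position over all peaks of a set. The 100 highest members reach 58% at the summit and all members 33.4%, and the neighbouring windows at 100 bp are at 20% or below.

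A longer form of the NF-Y site, with a pair of purines before CCAAT and C or G and then a purine after it, was held by 63 members (8.26%) in the same window, against 5.80% of the whole list. In the replicates it stood at 7.72%, 7.28% and 7.87% of summits and at 0.87%, 0.97% and 0.80% of side windows. It was more frequent in the nearer intergenic peaks than in members, by 2.02 ± 0.74 points in 3 of 3 replicates. The 20 highest members held CCAAT in 17 cases and the longer form in 8.

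Other short sequences were also more frequent at members' summits than beside them. GAGAG, the core of sites known to be bound by GAGA factor, was found at 144 members (18.9%), against 18.0% of the whole list, which is no more than the background of all peaks. It was 8.08 ± 1.06 points above the side windows of the same peaks in 3 of 3 replicates. GCCAT, the core of the known binding site of Pleiohomeotic (Pho), a DNA-binding protein of the Polycomb group, was searched after summit sequences had been read. Of all members, 203 (26.6%) held it within 50 bp of the summit, against 18.9% of the whole list and 20.5% of nearer intergenic peaks. In the replicates members exceeded the nearer intergenic peaks by 5.35 ± 1.27 points, intronic peaks by 7.62 ± 1.16 and all other peaks by 9.54 ± 1.35, each in 3 of 3. Among the 622 highest peaks of each replicate, GCCAT was present in 41.6% ± 3.17 (SD, n = 3) of members, 29.8% ± 2.71 of nearer intergenic peaks, 32.3% ± 5.97 of intronic peaks and 28.0% ± 1.75 of promoter peaks. GAGAG was present in 40.3% ± 2.33 of members there, against 37.7% ± 4.71, 38.5% ± 3.98 and 43.7% ± 5.33, differences within the spread between replicates. All of these motifs were searched on both strands, and a match describes the letters alone. GCCAT and CCAAT can share at most 2 letters, which they did in 16 members, and GCCAT was also present in 113 of the 508 members without CCAAT (22.2%). GCCAT varied with GC as well, being present in 38.6% of members and 27.5% of all other peaks at 45% GC or more. Between 30 and 45% GC the shares were 19.4% and 17.4%, and under 30% they were 7.43% and 7.72%. The excess was thus small or absent below 45% GC, and the part of base composition in it was not tested.

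CACAT, searched in the same windows, differed between summits and side windows by -0.87 ± 1.96 points, less than the spread between replicates. Summits lay at soft-masked, that is repeat-like, bases in 139 members (18.2%), against 21.0% of the whole list. No member's summit lay inside an annotated transposable element, but 64 members had the start of one within 2000 bp. Neither count is given here for other peaks.

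The members lay at a median of 5075 bp from the nearest start, with a range of 2007 to 36655 bp. Of the 763, 388 were over 5000 bp away, 164 over 10000 bp and 22 over 20000 bp. CCAAT was present in 34.1% of members at 2000 to 5000 bp, 35.7% at 5000 to 10000 bp and 28.7% beyond, with intervals that overlap, and the median list ranks were 3110, 2835.5 and 3083.5. The share of members among the 622 highest peaks was 12.5%, 12.1% and 9.15% in these classes, and 55.5%, 58.0% and 53.7% were found in all replicates.

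At the limit itself, the members just inside were that between CG5194 and Doc2, 2007 bp from a start and of list rank 3789, and that between upd2 and CG15059 at 2018 bp and rank 4685. Just outside were the peak between Sox21a and Sox21b at 1976 bp and rank 596, and the peak between toe and eyg at 1975 bp and rank 43. Both peaks just outside had higher signal than both just inside.

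The farthest members were weak to moderate. The 5 farthest include 4 in the gap between NijA, a membrane protein of the ninjurin family, and CG43245, at 36655, 34564, 33003 and 31860 bp from a start. The fifth lies 33862 bp from the start of vvl (ventral veins lacking, a POU-domain factor). Their list ranks were 3590, 2775, 2113, 2068 and 2126, and none had CCAAT within 50 bp of its summit.

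The gaps between genes that hold members were mostly long. The median length of the gap between the neighbouring genes of any kind was 16252 bp over members, and 24782 bp between protein-coding genes (n = 760, since 3 members lie beyond the last gene of an arm). Over nearer intergenic peaks the medians were 5281 and 9364 bp. The rule asks for distance from starts, so it leaves out much of a short gap that gene starts face, and the difference is not independent of it. Gaps with members were as short as 235 bp, and a summit could lie 6 bp from the body of a gene. The longest gap with a member, 113115 bp between CG10651 and lncRNA:CR40341 on 2L, held 1, at list rank 4914.

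The next longest, 75047 bp between NijA and CG43245 on 3L, held 7 members, 5 of them found in all replicates and none with CCAAT. The highest of these, whose sequence is the last of the 101-base lines above, had list rank 799 and 14.9% GC at its summit. It ranked 1521, 1340 and 486 in the replicates, higher in replicate 3 than in the other two. The third, 60107 bp between Aps and lncRNA:CR45248 on 3L, held 2 members, again without CCAAT. The longest deserts with members therefore held no motif-bearing member in these 3 cases.

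The members fell into 394 gaps, and 178 of these held at least 2 members, 547 members in all. At least 5 members stood in 27 gaps, which held 169 of the 763. The genes on both sides faced the gap with their starts for 27.8% of members and with their ends for 25.4%, while 46.4% had both neighbours in the same direction. For nearer intergenic peaks these shares were 43.1%, 6.59% and 49.9%. The nearest start was that of a protein-coding gene for 524 members, of a non-coding RNA for 217 and of a tRNA for 17, and 53.5% of members lay upstream of it.

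Developmental regulators were frequent neighbours. At least 1 of the flanking coding genes was in a list of 244 genes for developmental transcription factors, cofactors and signalling ligands for 368 members (48.2%), against 27.0% of all peaks outside genes and 18.2% of the 1841 that are not members. The 1841 comprise the 425 nearer intergenic peaks and peaks within 500 bp of a start, which are the larger part. List shares were not counted for the 425 alone, so the contrast is largely with peaks at gene starts. Counted by gap, so that many peaks beside 1 gene count once, members' share was 161 of 394 (40.9%). Homeobox and paired-box genes made up the largest part, with 189 members (24.8%) beside 57 of the 85 genes listed, against 7.22% of the other peaks outside genes.

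Among the other lists, developmental zinc finger genes flanked 75 members (22 of 43 genes), or 9.83% against 4.18% of the other peaks outside genes. Forkhead genes flanked 26 (8 of 16 genes), 3.41% against 1.47%. T-box genes flanked 21 (6 of 8), 2.75% against 0.54%, and Sox genes 20 (5 of 8), 2.62% against 0.71%. The bHLH genes flanked 11 members (5 of 28) and signalling ligands 11 (10 of 25), shares of 1.44% each against 1.47% and 0.98% of the other peaks outside genes. The listed symbols h, dys and Dl matched no gene, so peaks beside these genes under another symbol are missing from the list counts. Other developmental factors and cofactors flanked 15 members, 1.97% against 1.74%. Of the lists outside development, cuticle protein genes flanked 7 members (3 of 87 genes), 0.92% against 0.22%. MicroRNA genes flanked 11 (2 of 260), 1.44% against 0.33%. Counted by gap, these were 4 and 2 of the 394 gaps with members, so both shares rest on few places. Genes of immunoglobulin and leucine-rich cell surface families flanked 12, 1.57% against 0.92%, and chemosensory receptor genes 8, 1.05% against 1.41%. No member lay beside any of the 88 ribosomal protein genes, which flanked 49 of the other peaks outside genes. The lists were assembled with results of these data known, so these are counts and not tests.

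The same members and gene lists were also counted from the side of the gaps, which is a recount and not separate support. Of 978 gaps of over 10000 bp on the 6 arms, 240 held a member. A member was present in 70.4% of the 142 such gaps with a listed developmental gene on at least 1 side, and in 16.7% of the rest. In gaps over 20000 bp these shares were 75.4% of 61 and 16.9%, and in gaps of 2000 to 10000 bp they were 25.9% of 232 and 4.85%. Both kinds of gap differed in this way at each of the 3 lengths. The comparison was added after the data were seen.

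**Figure D4:**
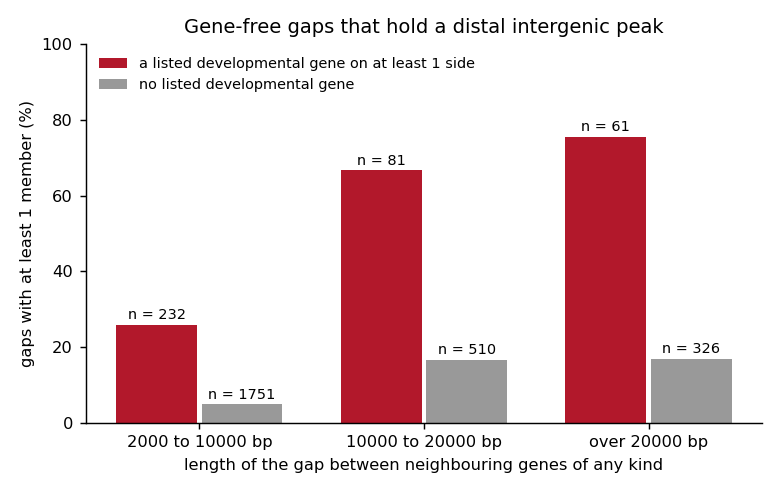
Percent of gaps between neighbouring genes that hold at least 1 distal intergenic peak, by gap length, for gaps with and without a listed developmental gene on either side. Bars start at 0, and n is the number of gaps in the genome arms used. Gaps with such a gene reach 75.4% beyond 20000 bp, and the others stay at or below 16.9%.

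Many members lay near another member. With steps of at most 5000 bp between neighbouring summits, 458 members (60.0%) stood in 174 chains of at least 2, and the other 305 stood alone. There were 112 chains of 2 and 39 of 3, and the rest had 4 to 8 members. The distance to the next optimal summit of any class had a median of 2473 bp and was as short as 199 bp.

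The longest chains lay in the gap of 36783 bp between Su(z)2 and CG13323 on 2R, which held 16 members in 2 chains of 8. One chain spans 13761 bp and ends with the peak of list rank 15, near CG13323. Its other members have list ranks of 352, 551, 3279, 3745, 4515, 5663 and 6150. The second spans 13002 bp closer to Su(z)2 and has 433 and 947 as its highest ranks. The summits of ranks 352 and 3745 share 1 interval, as do those of ranks 433 and 6180. Of the 16, 9 were found in all replicates and 4 had CCAAT.

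The neighbouring genes extend this group. From CG13321 through Psc and Su(z)2 to CG13323, over 94.1 kb, the optimal list has 39 peaks, of which 25 are members. Between CG13321 and Psc there are 6, with list ranks of 5, 544, 782, 2806, 3583 and 4052, and 4 of them share 1 interval of 2444 bp. Between Psc and Su(z)2, whose starts face each other, there are 3, with ranks of 255, 616 and 2010, all left of the small gene CG33798. The peaks at the starts of Psc and Su(z)2 themselves have ranks 3 and 8, so 4 of the 15 highest peaks of the list lie in this region and 2 of the 4 are members. The members of ranks 5 and 15 lie past the 3' ends of Psc and Su(z)2, on the far sides of the pair.

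**Figure D5:**
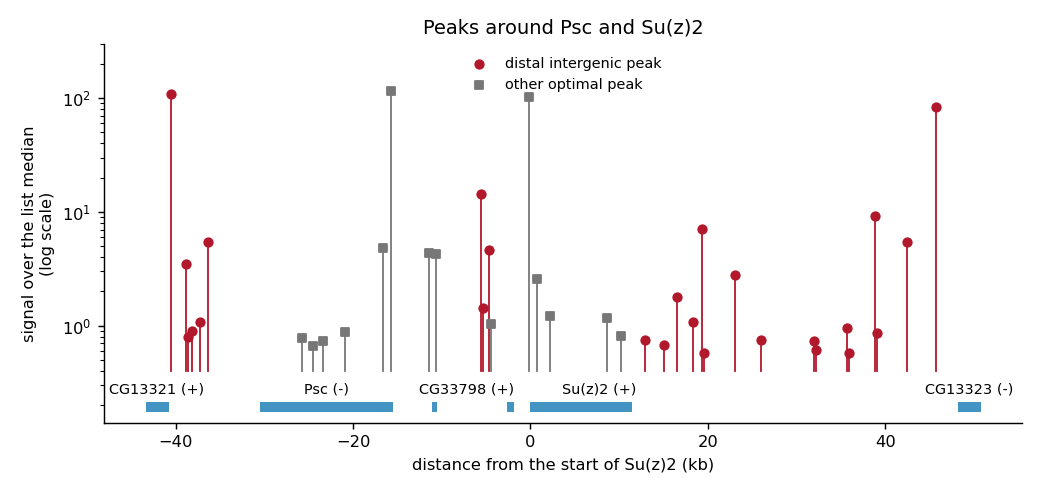
Optimal peaks from CG13321 to CG13323, by distance from the start of Su(z)2 in kb and by signal over the list median on a log axis. Red circles are distal intergenic peaks, grey squares are other optimal peaks, and blue boxes are annotated genes with their strand. Members at both outer ends reach 109 and 83.3 times the list median, and the peaks at the starts of Psc and Su(z)2 reach 117 and 102.

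The third chain lay between en (engrailed, a homeobox gene of segment polarity) and tou (toutatis) on 2R, in a gap of 49274 bp with 12 members. Its 7 members span 16764 bp, with list ranks of 256, 568, 1000, 1507, 1577, 4327 and 5424, and 5 of them were found in all replicates. The strongest ranked 238, 248 and 264 in the replicates, and the second 485, 502 and 887. No member of this gap is among the 200 highest peaks of the list.

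Other chains varied in make-up. Between grn and CheA84a, 6 members had list ranks of 85, 905, 1363, 2094, 4224 and 5262. Between caup and mirr, homeobox genes of the Iroquois complex, 6 members had ranks of 434, 1111, 1605, 2721, 5090 and 5244, and 3 had CCAAT. Between dati and lgs on chromosome 4, 5 members had ranks of 261, 591, 653, 3713 and 4561, and 4 had CCAAT. Of 3 further chains, chosen after their ranks were seen, 1 held 5 members between scyl and Dyro whose best list rank was 1634, and 1 held 5 between hry and SrpRbeta whose best was 2203. The 4 members between ss (spineless, a bHLH-PAS factor) and CG31279 had list ranks of 402, 700, 887 and 1602. Chromosome 4 had 12 members among its 57 optimal peaks (21.1%), the largest share of the arms, while the X had the smallest with 109 (10.1%). Of the 12 on chromosome 4, 8 lie between dati and lgs and 3 in a chain between fuss and toy, so that share rests on few places.

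Of single genes, Su(z)2 and CG13323 flanked 16 members, en and tou 12, disco (disconnected, a zinc finger factor) 12, and ems and Prat2, which encodes an enzyme of purine synthesis, 11 each. The homeobox genes caup and Dr (Drop), the Sox gene SoxN and the T-box gene mid (midline) flanked 10 each. The disco members were spread over both sides of the gene and were of middling signal, with the best at list rank 1094. The ems members included the strongest member of all and a further 10 of lower rank, of which the best has list rank 796.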

How the data were processed

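Nf-YB-GFP ChIP-seq of whole embryos was deposited as peak lists in dm6, per the labels: 1 list for each of 3 biological replicates and an optimal list. Per the file headers and readme texts, the authors called peaks on each replicate against a control and derived the optimal list by the irreproducible discovery rate. Each deposited list gives an interval, a summit, the authors' signal value and a −log10 q-value per peak. The signal ranked peaks within a list only, and the deposited −log10 q-value was an alternative ranking. Which peak caller was used, with which settings and on how many reads, is not given in the sources used here. Fragments ran from 200 to 800 bp, per the labels, so a summit does not place a site to the base, and each replicate list holds 30000 peaks, so list lengths say nothing of the libraries.

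Summits were placed against Ensembl release 115 genes (18164 on 6 arms, transposable elements left out) with Python 3.11.15, numpy 2.4.6 and scipy 1.17.1, and bases came from the RefSeq copy of dm6. Motif windows of 50 bp to each side, side windows 500 bp away, chains with steps of at most 5000 bp and matches within 100 bp were used throughout. Replicate lists were shortened to their 6221 highest peaks. Differences between classes were taken within each replicate and tested by an exact two-sided sign-flip permutation over the 3 replicates, with Benjamini-Hochberg adjustment over 49 comparisons; nothing says whether the replicates came from separate cultures beyond their label as biological. Shares carry exact 95% Clopper-Pearson limits, for counting error alone. Of 250 gene symbols in the lists, 247 matched, and h, dys and Dl did not. The computations were checked on simulated data. The members and gene lists were chosen with earlier results of these data known. Members named are the 12 highest found in all replicates, the 5 farthest from a start, the 3 longest chains, the 3 longest gaps, the 5 highest found in no replicate and 2 on each side of the distance limit; other chains and genes were named after their values were seen.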

Additional observations from a re-analysis of the deposited data

How the results depend on the processing

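Over 135 alternatives to 22 results, 119 were counted as unchanged. For differences between classes or windows this means the same sign only, and their size could change. Recovery of members minus nearer intergenic peaks went from -0.70 to -5.78 points with 3110 peaks per replicate. The excess of CCAAT over side windows went from 11.3 to 40.9 points among the 622 highest peaks of each replicate. Size was counted only for the number of members and their shares in chains and long gaps. The 763 members became 388 beyond 5000 bp, while counting transposable elements as genes gave 699 and protein-coding genes only gave 1088. The share of members in chains moved from 60.0% to 37.4% with steps of at most 2000 bp and 73.0% with 10000 bp, and the share in gaps of over 20000 bp from 38.1% to 60.0% between protein-coding genes.

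Differences within the spread between replicates changed sign. For recovery, members minus nearer intergenic peaks went from -0.70 points to 2.03 with 12442 peaks per replicate, 1.62 with the whole lists and 1.86 for the 3110 highest optimal peaks, and ran from -2.49 to 2.20 when a replicate was left out (2.20 without replicate 3). Members minus intronic peaks went from 2.95 to -0.41 for those 3110. Members minus all other peaks ran from -0.996 (without replicate 2) to 5.33 without 1 replicate. For signal, members minus all other peaks went from 2.63 percentile points to -3.04 with 12442 peaks per replicate. For CCAAT, members minus nearer intergenic peaks ran from -0.092 (without replicate 3) to 1.38 without 1 replicate. CACAT minus side windows became 0.31 and 1.82 with windows of 25 and 100 bp and ran from -1.79 to 0.16 without 1 replicate (0.16 without replicate 1). For soft-masked summits, members minus nearer intergenic peaks went from 2.04 to -0.25 as a share of bases. The cause of these changes was not tested. The excess of CCAAT over side windows and over intronic peaks kept its direction in each of these alternatives, none of which split peaks by GC. In the optimal list it did not hold in every split. Members under 30% GC had CCAAT at 12.2% of summits and 22.6% of side windows. At ranks 2489 to 3733 it was present in 25.7% of members and 28.1% of intronic peaks.

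Class differences were taken within each replicate, and with 1 group there are no groups to pair by replicate number. Depth is unknown, so whether a weak member is missed for want of reads cannot be told from these files.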
